A study of Mus musculus with 42 samples.

Results

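Egr2, Gbx2, En1, En2 and Pax2, 5 genes that pattern the midbrain and hindbrain, were examined for binding of SOX2, β-catenin and LEF1. A peak belonged to a gene if it overlapped the gene body extended by 10 kb on each side (mm10). The 5 genes were taken out of 55413 annotated genes, and their windows held 89 of the 336403 regions that were called in any library. The ChIP–seq libraries came from the XY HM1 TetON embryonic stem cell line (129), used as wild type, and mutant lines derived from it, which had been differentiated to epiblast-like cells with FGF and LGK974, a blocker of WNT secretion, and collected at 72 h. Of the 42 samples, 30 immunoprecipitated libraries were used and the 12 inputs were not analysed here. With the WNT agonist CHIR99021 (CHIR) added for the last day, each of the 3 factors was profiled in wild-type cells (WT), in Cdx1/2/4-/- cells (CdxKO) and in T/Bra-/- cells (T/BraKO). SOX2 was also profiled in WT cells with FGF but without CHIR (noCHIR). This made 10 groups of 3 biological replicates, all labelled as a single experiment. Each genotype was a different cell line, so genotype and line cannot be told apart. The lists hold binding and no RNA, so the labelled cell type could not be checked against marker genes. The comparisons asked whether WNT activation changes SOX2 occupancy and whether occupancy by the 3 proteins at these genes differs when Cdx genes or T are lost.

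Midbrain and hindbrain identity is organised around the isthmus, the boundary between both territories. Gbx2 is a homeobox gene of the anterior hindbrain that opposes Otx2 there and is a known target of WNT signalling. Pax2, a paired-box gene, and the homeobox genes En1 and En2 are expressed across the boundary and maintain it together with Wnt1 and Fgf8. Egr2, also called Krox20, encodes a zinc-finger factor of hindbrain segments, the rhombomeres. Of the proteins profiled, β-catenin enters the nucleus upon WNT activation and has no DNA-binding domain of its own. LEF1, an HMG-box protein, tethers it to DNA, and SOX2 is an HMG-box protein required in both the epiblast and the neural plate.

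Each list was called by the authors in 1 library, and the lists held between 26940 and 1008922 peaks. Read totals are not in the lists, so the depth of each library is unknown. To compare lists of such different length, the 20000 best peaks of each were used, ranked by the deposited −log10 q, and rank 1 is the strongest peak of a library. The deposited fold enrichment is the height of a peak at its summit divided by what the caller took as local background. Peaks at T, Cdx1, Cdx2 and Cdx4, the genes deleted, were called in mutants as well as in WT. The extent of the deletions is not known from the sources used here, so these peaks check nothing about the genotypes.

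Recurrent summits were found at Gbx2, En2 and Pax2. Summits of the 20000 best peaks that lay within 100 bp of the next were joined, and 12 such sites were called in at least 6 of the 30 libraries, a description made after the values had been seen. Of these, 4 lay at Gbx2, 3 at En2, 5 at Pax2 and 0 at En1 or Egr2. The 6 sites that carry most of the following results are printed as the 201 bp centred on the median summit, read from the plus strand of GRCm38.p6, the assembly of mm10. Capitals mark matches to the SOX letters CCATTGT or their variant CCTTTGT, or to the TCF/LEF letters CTTTGAA or their variant CTTTGAT, on either strand. The CDX letters (CAATAAA, the variant CCATAAA, the variant TAATAAA or the variant TCATAAA) and the T-box letters AGGTGTGA were searched too and had 0 matches in these 6 windows. Of the sites not printed, the En2 site 5.24 kb downstream of the start held 1 match to CAATAAA. It was on the minus strand and started 80 bp from the centre. CDX letters lay within 100 bp of 13% of all summits.
Gbx2, 4.87 kb upstream, chr1:89935952-89936152: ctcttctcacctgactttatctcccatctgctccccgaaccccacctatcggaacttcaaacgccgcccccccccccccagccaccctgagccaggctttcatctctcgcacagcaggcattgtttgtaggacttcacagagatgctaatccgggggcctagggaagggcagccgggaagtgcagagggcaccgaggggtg
Gbx2, 3.70 kb upstream, chr1:89934778-89934978: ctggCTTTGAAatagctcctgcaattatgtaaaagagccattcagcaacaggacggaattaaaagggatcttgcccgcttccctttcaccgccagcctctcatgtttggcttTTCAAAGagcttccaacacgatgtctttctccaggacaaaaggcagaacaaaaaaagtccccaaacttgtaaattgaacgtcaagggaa
Gbx2, 8.35 kb downstream of the start, chr1:89922731-89922931: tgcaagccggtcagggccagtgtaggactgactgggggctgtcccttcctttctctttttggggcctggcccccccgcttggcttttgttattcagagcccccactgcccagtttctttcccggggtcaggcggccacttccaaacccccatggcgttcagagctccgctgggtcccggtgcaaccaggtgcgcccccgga
En2, 11.0 kb downstream of the start, chr5:28176613-28176813: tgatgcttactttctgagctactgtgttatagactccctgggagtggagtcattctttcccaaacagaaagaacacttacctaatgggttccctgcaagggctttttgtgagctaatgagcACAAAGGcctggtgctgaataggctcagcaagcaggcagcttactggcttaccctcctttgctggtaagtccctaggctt
Pax2, 2.35 kb upstream, chr19:44753595-44753795: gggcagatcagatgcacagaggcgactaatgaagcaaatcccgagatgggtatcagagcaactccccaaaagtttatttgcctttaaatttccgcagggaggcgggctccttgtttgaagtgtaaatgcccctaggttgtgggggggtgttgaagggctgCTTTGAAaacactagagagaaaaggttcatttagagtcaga
Pax2, 5.65 kb upstream, chr19:44750295-44750495: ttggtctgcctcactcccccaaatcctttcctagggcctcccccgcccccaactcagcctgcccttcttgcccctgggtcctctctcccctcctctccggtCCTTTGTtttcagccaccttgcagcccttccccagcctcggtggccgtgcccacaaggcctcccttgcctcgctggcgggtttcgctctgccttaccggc
All 6 windows were intergenic in GENCODE M21. The Gbx2 window 3.70 kb upstream held 2 matches to CTTTGAA, the one on the minus strand starting 12 bp from the centre. The Pax2 window 2.35 kb upstream held 1 match to CTTTGAA. A match to CCTTTGT lay 21 bp from the centre of the En2 window and 1 bp from the centre of the Pax2 window 5.65 kb upstream. The remaining 2 Gbx2 windows held 0 matches. A match describes letters in the window and is not evidence of a binding site.

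Gbx2 held the best-ranked β-catenin and LEF1 peaks of the 5 genes in every library, and was the only one with a peak among the 20000 best of all 30 libraries. A peak in every library of a factor was found at 5.93% of all genes with SOX2, at 7.35% with β-catenin and at 2.41% with LEF1. The best β-catenin peak at Gbx2 (chromosome 1, 89927956 to 89931179, minus strand) had rank 10, 5 and 19 in the WT replicates. In CdxKO the ranks were 14, 11 and 13, and in T/BraKO they were 10, 7 and 6. Gbx2 thus held one of the 19 strongest β-catenin peaks of the genome in all 9 libraries, and the ranges of the 3 genotypes were close to each other. For LEF1 the ranks were 8, 33 and 29 in WT, 22, 18 and 9 in CdxKO, and 59, 7 and 92 in T/BraKO. For SOX2 they were 73, 383 and 371 in WT CHIR, 492, 498 and 514 in WT noCHIR, 69, 82 and 489 in CdxKO, and 76, 95 and 187 in T/BraKO. Gbx2 ranked ahead of the other 4 genes in 8 of 12 SOX2 libraries and behind En2 in the 3 noCHIR libraries and WT CHIR replicate 3. No SOX2 library ranked its Gbx2 peak as high as any β-catenin library did.

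**Figure D1:**
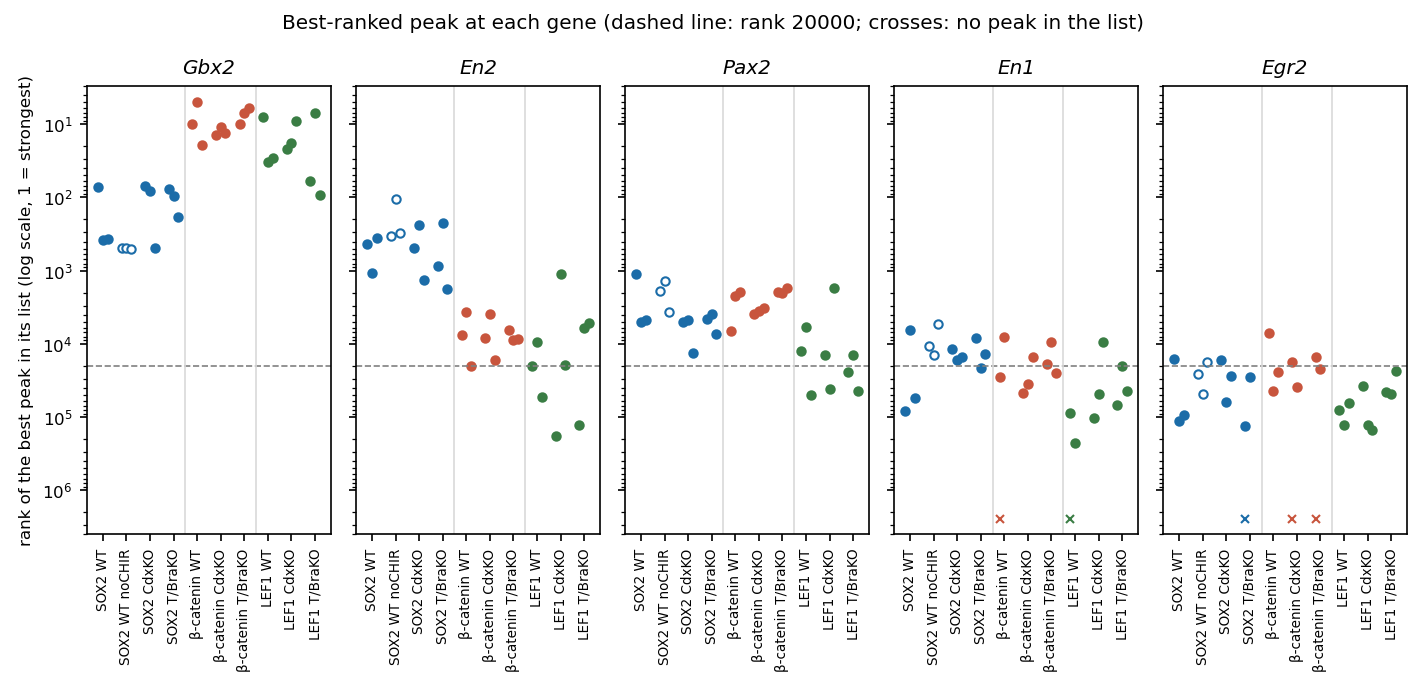
Rank of the best peak overlapping each gene (gene body extended by 10 kb) in each of the 30 libraries, on a log axis with rank 1 at the top; each point is a library, open circles are WT noCHIR, the dashed line is rank 20000 and crosses mark lists with no peak. Gbx2 holds ranks 5 to 19 for β-catenin and 7 to 92 for LEF1, whereas the best rank of En1 in any library is 5313 and that of Egr2 7103, and many of their libraries lie beyond rank 20000.

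The strongest β-catenin and LEF1 peaks of Gbx2 were at the same site, 4.87 kb upstream of the start, in the merged region chr1:89933700-89936866, which held a peak in all 30 full lists. It held the best β-catenin peak of the gene in 9 of 9 libraries and the best LEF1 peak in 9 of 9, and the β-catenin summits lay between −4 and 11 bp of the centre. The β-catenin fold enrichment there was 150, 157 and 88.4 in WT, 110, 127 and 180 in CdxKO, and 100, 160 and 162 in T/BraKO. The 3 genotypes overlapped, with means of 132 ± 37.7, 139 ± 36.5 and 141 ± 35.2 (SD, n = 3). LEF1 fold enrichment was 48.0 ± 27.3 in WT, 56.5 ± 9.99 in CdxKO and 36.7 ± 26.4 in T/BraKO. The ranges overlapped, at 21.3 to 75.9, 48.5 to 67.7 and 21.2 to 67.1 in the same order. SOX2 bound the same site at a lower fold enrichment, between 4.63 and 26.7 over the 12 libraries. Its ranks there were 770, 2087 and 1530 in WT CHIR and 7798, 22817 and 3737 in noCHIR, so that it ranked better in every WT CHIR library than in any noCHIR library. The fold enrichment overlapped, at 20.2, 10.1 and 12.3 in WT CHIR and 6.47, 4.63 and 11.8 in noCHIR. In the mutants the SOX2 ranks were 489 to 1656 (CdxKO) and 886 to 3081 (T/BraKO), overlapping WT CHIR. A second site 3.70 kb upstream was shared by 9 SOX2, 6 β-catenin and 6 LEF1 libraries among the 20000 best. In 3 further β-catenin libraries a single wide peak, with its summit 4.87 kb upstream, covered it.

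**Figure D2:**
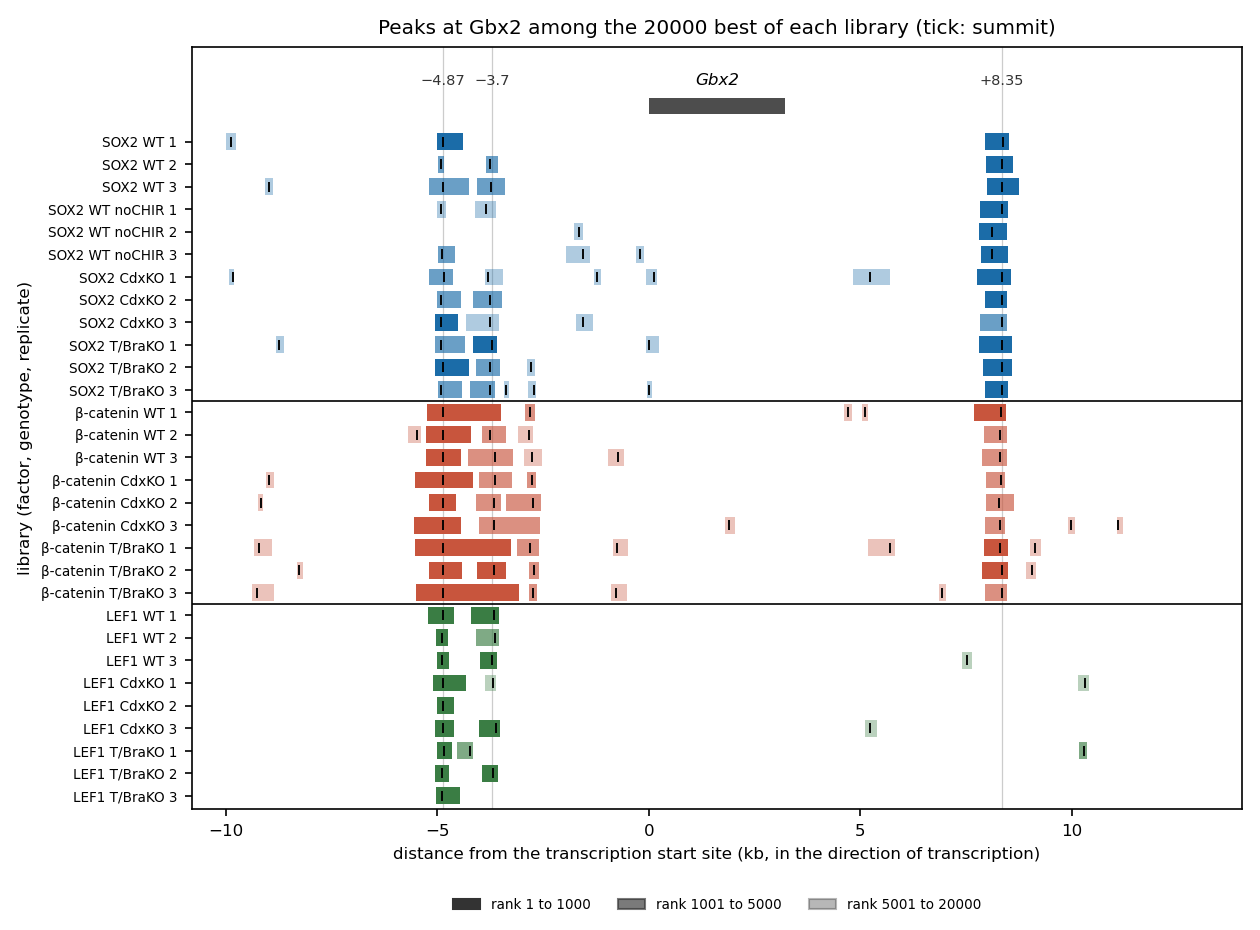
Peaks at Gbx2 among the 20000 best of each of the 30 libraries, by distance from the transcription start site in kb; each row is a library, bars span the peaks, ticks are summits, and darker bars are better ranks. The columns of bars 4.87 kb upstream, shared by SOX2, β-catenin and LEF1, and 8.35 kb downstream, shared by SOX2 and β-catenin, run through nearly all their libraries, and no LEF1 library has a bar at the downstream site.

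SOX2 had its best Gbx2 peak at a different site, 8.35 kb downstream of the start and beyond the end of the gene, in 11 of 12 libraries. The exception was CdxKO replicate 3, where that site had rank 1213 and the upstream site rank 489. The SOX2 fold enrichment downstream was 43.7, 14.6 and 25.6 in WT CHIR, 33.0, 39.3 and 21.4 in noCHIR, 54.9, 53.9 and 15.7 in CdxKO, and 47.2, 50.1 and 38.3 in T/BraKO. The 9 CHIR libraries had the summit within 14 bp of the centre of the site, whereas the peaks of noCHIR replicates 2 and 3 had it 8121 and 8112 bp from the start of Gbx2 although they covered the site. In noCHIR replicate 1 it lay 8347 bp from the start. β-catenin bound the downstream site in 9 of 9 libraries, and LEF1 in 0 of 9 among the 20000 best, although 4 full LEF1 lists held a weak peak of rank 29820 or beyond within 150 bp. CdxKO had the lowest β-catenin fold enrichment at this site. The values were 24.7, 18.8 and 18.4 in WT, 11.4, 15.4 and 8.91 in CdxKO, and 51.3, 38.5 and 23.0 in T/BraKO, so that each CdxKO value was below the values of the other 6 libraries. By rank the groups overlapped, at 806, 1372 and 2354 in WT, 3642, 1589 and 4134 in CdxKO, and 372, 389 and 1240 in T/BraKO. Fold enrichment varies with the background of a library, this site was singled out after its values had been seen, and no test was run on it.

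En2 differed from Gbx2 in that SOX2, and not β-catenin or LEF1, had its strong site there. In all 12 SOX2 libraries the best peak of En2 (chromosome 5, 28165694 to 28172166) was 11.0 kb downstream of the start, past the end of the gene, in the region chr5:28176469-28177318. Its rank was 435, 1074 and 353 in WT CHIR, 338, 105 and 304 in noCHIR, 492, 236 and 1357 in CdxKO, and 875, 220 and 1781 in T/BraKO. The noCHIR libraries ranked it ahead of every WT CHIR library, and both mutants overlapped WT. Fold enrichment was 48.4 ± 16.2 (SD, n = 3) in noCHIR and 22.6 ± 11.3 in WT CHIR, 25.7 ± 12.6 in CdxKO and 22.3 ± 14.5 in T/BraKO. Among the 20000 best, β-catenin had a peak there in 6 of 9 libraries, 2 in each genotype, at ranks between 3956 and 8961, and LEF1 in 0 of 9.

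The SOX2 peaks of En2 apart from this site were fewer in WT CHIR than in any other SOX2 group. En2 had 1, 1 and 1 SOX2 peaks in WT CHIR, 6, 4 and 3 in noCHIR, 4, 2 and 2 in CdxKO, and 2, 2 and 4 in T/BraKO. The WT CHIR libraries did not overlap any of the other 3 groups, and the 3 comparisons share these WT CHIR libraries. This direction was not particular to En2. Over all genes tested, WT CHIR was lower without overlap at 4.02% (noCHIR), 2.34% (CdxKO) and 1.66% (T/BraKO). It was higher without overlap at 1.62%, 0.965% and 0.995%. The difference from noCHIR was −3.33 peaks (exact p = 0.1, Benjamini-Hochberg adjusted p = 1), and that from each mutant −1.67 peaks (exact p = 0.1, adjusted p = 1). The smallest p that 3 libraries against 3 allow in this two-sided exact test is 0.1. One of the sites behind the difference lay 5.24 kb downstream of the start, in the annotated UTR at the end of En2 (region chr5:28170686-28171512). It was among the 20000 best peaks of 0 of 3 WT CHIR, 3 of 3 noCHIR, 3 of 3 CdxKO and 2 of 3 T/BraKO libraries. Its ranks were 122416, 172078 and 28753 in WT CHIR, 13721, 4676 and 12739 in noCHIR, 2774, 3111 and 4546 in CdxKO, and 83933, 4000 and 3968 in T/BraKO. All 12 full SOX2 lists thus held the site, and WT CHIR ranked it lower than the noCHIR and CdxKO groups without overlap. β-catenin and LEF1 had no peak within 150 bp of it in any of their 18 full lists. Among the 20000 best, only this 1 of the 89 regions at the 5 genes was called in every library of a group and none of its comparison group. It was so for WT CHIR against noCHIR and against CdxKO. Of all 75458 SOX2 regions called in WT CHIR or noCHIR, 2937 were so for noCHIR and 108 for WT CHIR. Of 80668 called in WT CHIR or CdxKO, 767 were so for CdxKO and 49 for WT CHIR. A single such region thus does not set these genes apart. The lower count of En2 in WT CHIR depended on which peaks were kept. Against noCHIR the difference shrank to −0.333 (exact p = 1) both with the 5000 best and with full lists. With full lists En2 had 6.67 more peaks in WT than in CdxKO and 7.67 more than in T/BraKO.

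**Figure D3:**
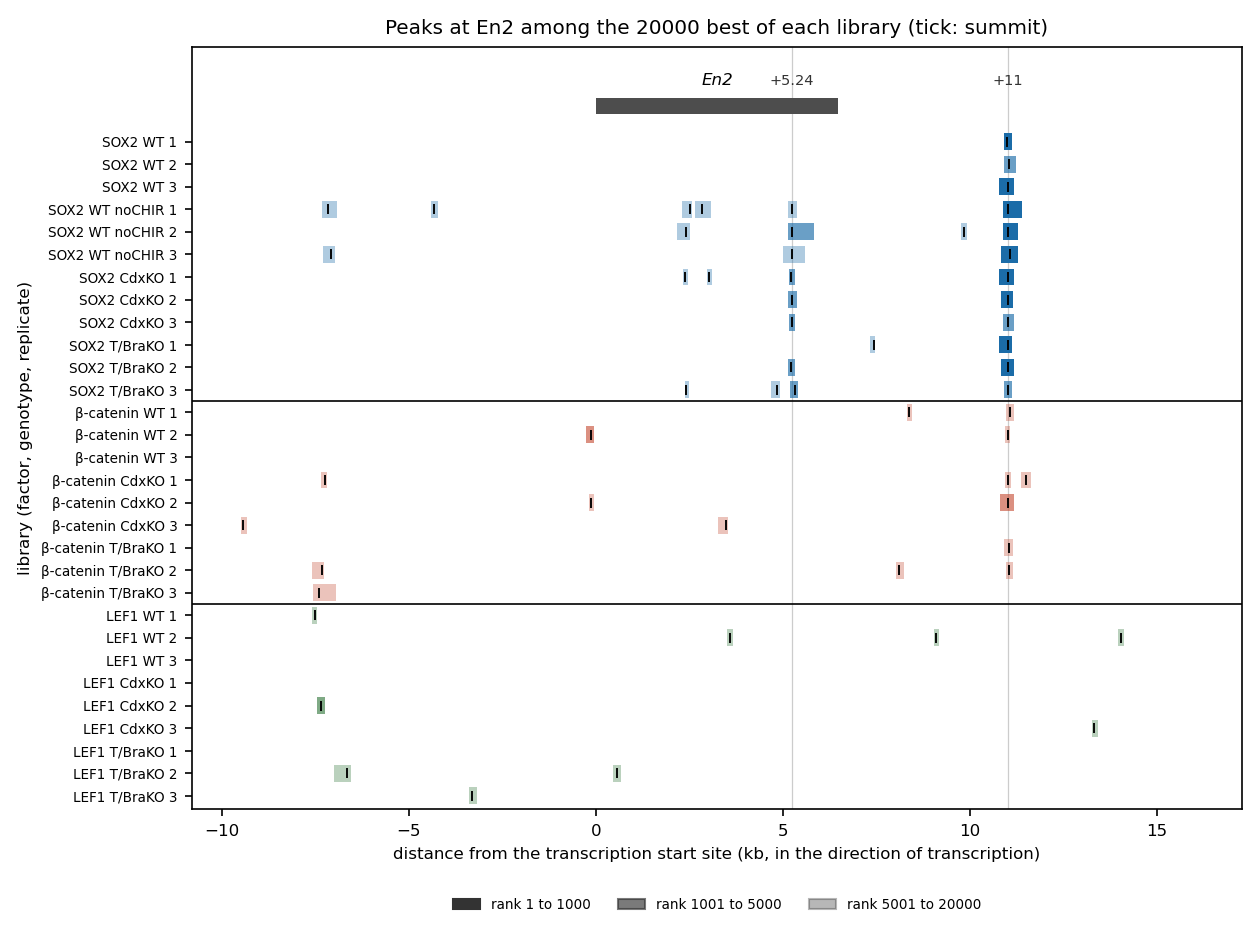
Peaks at En2 among the 20000 best of each library, drawn as for Gbx2 with distance from the transcription start site in kb. The SOX2 peak 11.0 kb downstream is in all 12 SOX2 libraries, the SOX2 peak 5.24 kb downstream is missing from the 3 WT CHIR libraries and from T/BraKO replicate 1, and LEF1 peaks are scattered.

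Upstream of Pax2 (chromosome 19, 44756045 to 44837871), the site called in most β-catenin libraries was separate from the 2 called in most SOX2 libraries. β-catenin had 1 peak 2.35 kb upstream in 9 of 9 libraries, and it was the best β-catenin peak of the gene in 8 of them. The merged region around it, chr19:44751562-44754186, was the one called in most libraries at Pax2 (9 SOX2, 9 β-catenin and 1 LEF1). That region is 2625 bp wide and also holds the SOX2 site 3.79 kb upstream. The β-catenin ranks 2.35 kb upstream were 8993, 2242 and 1974 in WT, 3948, 3542 and 3267 in CdxKO, and 1988, 2048 and 1737 in T/BraKO. The CdxKO libraries lay behind all T/BraKO libraries but overlapped WT, whose replicate 1 was the lowest of the 9. Among the 20000 best, SOX2 was called at this site in 1 of 12 libraries and LEF1 in 1 of 9. SOX2 instead had 2 sites further upstream. That 5.65 kb upstream was among the 20000 best in 3 of 3 noCHIR, CdxKO and T/BraKO libraries and in 0 of 3 WT CHIR libraries with a summit within 150 bp. The merged region around it, 1063 bp wide, was still called in 2 of 3 WT CHIR libraries through other summits. Ranks at the site were 6343, 1385 and 6337 in noCHIR, 5045, 8802 and 13246 in CdxKO and 6641, 12483 and 13559 in T/BraKO. WT CHIR replicates 2 and 3 had it at 24186 and 47808, and replicate 1 had no peak there. The other site, 3.79 kb upstream, was called in 9 SOX2 and 2 β-catenin libraries, and 7 of 9 full β-catenin lists held a peak within 150 bp. In an intron of Pax2, 52.9 kb from the start, a SOX2 site was called in 3 of 3 noCHIR libraries at ranks 14202, 3110 and 3681, in 1 of 3 WT CHIR libraries at rank 1117, and in 1 CdxKO and 1 T/BraKO library at ranks 18314 and 18366.

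**Figure D4:**
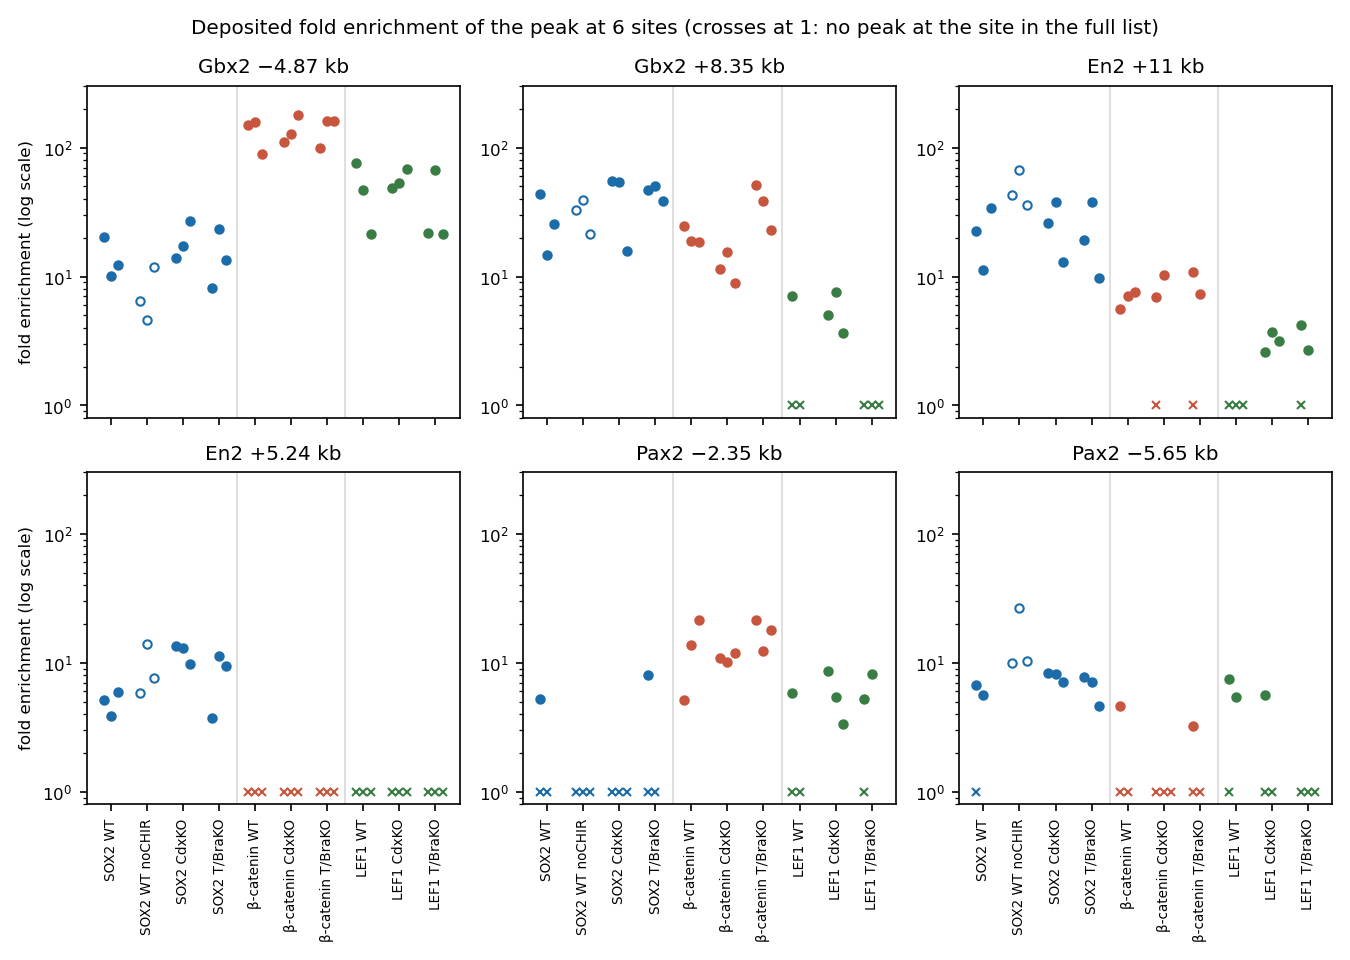
Deposited fold enrichment (log axis) of the peak at 6 sites, named by gene and distance from its start in kb; each point is a library, open circles are WT noCHIR, and crosses at 1 mark libraries whose full list holds no peak at the site. β-catenin reaches 88.4 to 180 at Gbx2 4.87 kb upstream, and at Gbx2 8.35 kb downstream its 3 CdxKO values of 8.91 to 15.4 lie below those of WT and T/BraKO.

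En1 and Egr2 were weakly and irregularly occupied. En1 (chromosome 1, 120602418 to 120607992) had a peak among the 20000 best in 9 of 12 SOX2, 4 of 9 β-catenin and 1 of 9 LEF1 libraries, and its best rank in any library was 5313. These peaks fell into 13 regions, of which 10 were called in a single library each. The region called most often, chr1:120609905-120610208 and 7644 bp from the start, was called in 3 SOX2 libraries. Egr2 (chromosome 10, 67535475 to 67542188) had such a peak in 3 of 12 SOX2, 3 of 9 β-catenin and 0 of 9 LEF1 libraries, with 7103 as the best rank. Its region called most often, chr10:67536103-67536394, lay 813 bp inside the annotated gene, ahead of the transcripts of the basic annotation, and was called in 1 SOX2 and 2 β-catenin libraries. Of the libraries without an Egr2 peak among the 20000 best, 3 had no peak in the full list. The share of all genes with a peak in a library was on average 27.9% in SOX2, 26.3% in β-catenin and 26.6% in LEF1 lists. En1 was thus called in a larger share of SOX2 and β-catenin libraries than genes on average, and in a smaller share of LEF1 libraries.

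Set side by side, the genes differed in the order of their best ranks. For β-catenin, Gbx2 (ranks 5 to 19) was separated from Pax2 (1737 to 6725) and En2 (3636 to 20016), which overlapped. For LEF1, Gbx2 (7 to 92) was again separated from En2 (from 1126) and Pax2 (from 1741), which overlapped. For SOX2 each gene overlapped its neighbour in the order Gbx2 (69 to 514), En2 (105 to 1781), Pax2 (1117 to 13246) and En1 (5313 to 82005). Per 10 kb of window, the mean number of peaks at Gbx2 was 1.72 (SOX2), 2.39 (β-catenin) and 0.957 (LEF1). The means over all genes were 0.119, 0.108 and 0.0940. The same density at En2 was 1.01, 0.672 and 0.378, and at Pax2 0.475, 0.262 and 0.109. En1 (0.391, 0.174 and 0.0434) was above the mean of all genes for SOX2 and β-catenin, and Egr2 (0.0936, 0.208 and 0) for β-catenin. The β-catenin peaks of Egr2 were 3 in WT replicate 1 and 1 in replicate 1 of each mutant, and 0 in the other β-catenin libraries.

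**Figure D5:**
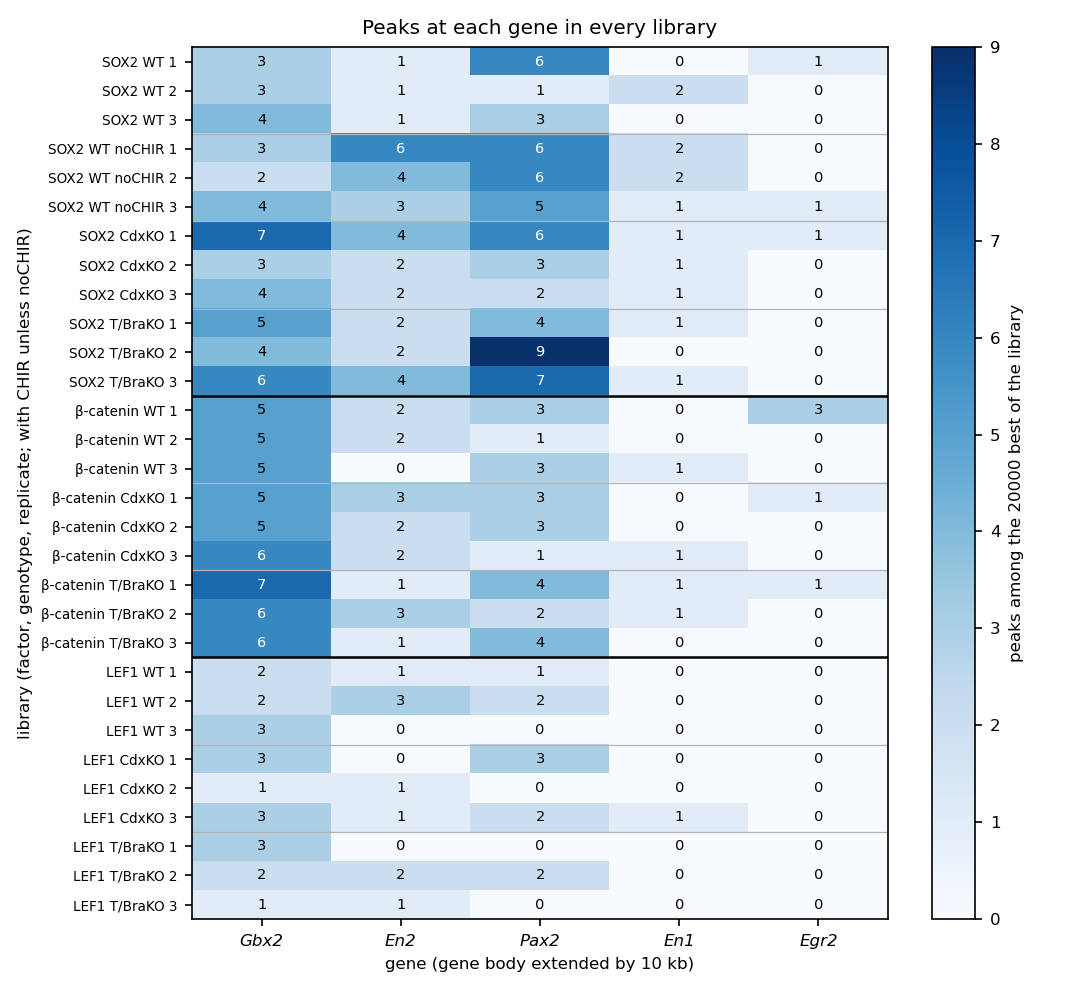
Number of peaks among the 20000 best of each library (rows) that overlap each gene with 10 kb on each side (columns), with the number printed in each cell and a darker shade for a larger number. Gbx2 has 1 to 7 peaks in every library, En2 has 1 in each WT CHIR SOX2 library, and Egr2 has 0 in all LEF1 libraries.

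Summed over the 5 genes, SOX2 peaks were fewer in WT CHIR (11, 7 and 8) than in noCHIR (17, 14 and 14) and T/BraKO (12, 15 and 18), without overlap of the groups, and overlapped CdxKO (19, 9 and 9). The mean differences were −6.33, −6.33 and −3.67 peaks for WT CHIR against noCHIR, T/BraKO and CdxKO. Over all genes tested singly, WT CHIR was also lower more often than higher. The shares without overlap were 4.02% against 1.62% (noCHIR), 1.66% against 0.995% (T/BraKO) and 2.34% against 0.965% (CdxKO). The sums of β-catenin peaks were 13, 8 and 9 in WT, 12, 10 and 10 in CdxKO, and 14, 12 and 11 in T/BraKO. Those of LEF1 were 4, 7 and 3, then 6, 2 and 7, then 3, 6 and 2 in the same order. For β-catenin and LEF1 the genotypes overlapped. The SOX2 direction depended on which peaks were kept. With full lists WT CHIR had 21.7 more peaks than noCHIR and 40 more than T/BraKO, and with the 5000 best of each list the differences were 0.333 and −0.667. The full SOX2 lists of WT CHIR (1008922, 289925 and 205833 peaks) were each longer than any of noCHIR (88643, 81239 and 201773) or CdxKO (163926, 86068 and 172423). Those of T/BraKO held 266820, 104221 and 26940 peaks. Whether list length bears on these differences was not tested.

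Counted gene by gene, WT CHIR and noCHIR did not overlap in the number of SOX2 peaks at 1 of the 5 genes, En2, against 5.64% of the genes tested, which were those with a peak among the 20000 best in at least 1 library of the comparison. In the rank of the best peak they did not overlap at 2 of the 5, Gbx2 and En2, against 11.8% of genes. These moved in opposite directions. Gbx2 ranked better with CHIR, with a mean log10 rank of 2.34 ± 0.412 against 2.70 ± 0.00981 (difference −0.361, exact p = 0.1, Benjamini-Hochberg adjusted p = 0.846), and without WT CHIR replicate 1 the difference was −0.124. En2 ranked better without CHIR, with 2.74 ± 0.257 against 2.34 ± 0.281 (difference 0.395, exact p = 0.1, adjusted p = 0.846). The test over all genes called 0 genes for either measure at an adjusted or unadjusted p of 0.05, which 3 against 3 libraries cannot reach.

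Between WT and CdxKO, the number of SOX2 peaks did not overlap at En2 alone (3.3% of all genes), and the best rank at none of the 5 (6.57%). For β-catenin the count was 0 of 5 by number (2.38%) and 0 of 5 by rank (6.26%). For LEF1 it was 0 of 4 by number (1.98%) and by rank (3.6%), since Egr2 had no LEF1 peak among the 20000 best and was not tested. Between WT and T/BraKO, SOX2 separated at En2 by number (2.66%) and at none of the genes by rank (5.4%). β-catenin separated at Gbx2 by number (3.14%), with 5, 5 and 5 peaks in WT and 7, 6 and 6 in T/BraKO (difference −1.33, exact p = 0.1, adjusted p = 1), and at none by rank (8.52%). With full lists the Gbx2 difference turned to 2.33 more peaks in WT. LEF1 separated at 0 of the 3 genes tested by number (2.21%) and by rank (3.73%), since En1 had no such peak in these 6 libraries either.

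CdxKO was also set against the 6 WT CHIR and T/BraKO libraries together, a comparison in which the exact test can reach 0.0119. At none of the 5 genes (4 for LEF1) did CdxKO lie wholly above or below the other 6 libraries. Over all genes such a separation was found by number at 0.474% (SOX2), 0.611% (β-catenin) and 0.319% (LEF1) and by rank at 1.53%, 2.42% and 0.79%. The smallest exact p at the 5 genes was 0.25 for the β-catenin rank of Gbx2 (mean log10 rank 1.1 ± 0.0536 in CdxKO and 0.933 ± 0.207 in the other 6 libraries; adjusted p = 0.917). For SOX2 it was 0.31 for the rank of Pax2 and for LEF1 0.333 for En1. Across all genes 530 were below an unadjusted exact p of 0.05 by number in SOX2, 530 in β-catenin and 462 in LEF1 libraries, and by rank 959, 1396 and 679 were, while 0 had an adjusted p below 0.05. CdxKO was thus not separated from the other lines in peak number or best rank at these genes in the 9 CHIR libraries of each factor, which does not show that they did not differ.

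Of 9 further genes of the midbrain-hindbrain boundary, 3 separated between WT CHIR and noCHIR in the number of SOX2 peaks, against 5.64% of all genes tested, and 3 in the best rank, against 11.8%. Fgf8, the signal of the isthmus, had more with CHIR (2.67 ± 1.15 against 0.333 ± 0.577), while Otx2 (2.00 ± 0 against 5.33 ± 0.577) and Lmx1b (4.67 ± 1.15 against 12.3 ± 2.08) had fewer. Otx2, the forebrain and midbrain counterpart of Gbx2, also had fewer SOX2 peaks in WT CHIR than in T/BraKO, with 3.67 ± 0.577 there. By number of peaks, these were the separations on that list in the 10 comparisons. In the best rank of β-catenin, WT was ahead of T/BraKO at 1 of 9 and behind at 2, against 4.05% and 4.47% of all genes. Ranks also separated at 1 of 9 for β-catenin in WT against CdxKO (6.26%), and for SOX2 (5.4%) and LEF1 (3.73%) in WT against T/BraKO. Of 10 genes of the rhombomeres, CdxKO stood apart from the other 6 libraries at 1 gene for each factor by number of peaks, of 9 tested for SOX2 and 10 for β-catenin and LEF1. The shares over all genes were 0.474%, 0.611% and 0.319%. By rank it stood apart at 1 of 9, 3 of 10 and 1 of 10, against 1.53%, 2.42% and 0.79%. Hoxa3 had 4.00 ± 2.65 β-catenin peaks in CdxKO and 10.3 ± 1.97 in the other libraries (exact p = 0.0119, adjusted p = 1). Hoxb2 had 5.33 ± 0.577 SOX2 peaks in CdxKO against 2.67 ± 1.63 (exact p = 0.0238, adjusted p = 1) and 2.33 ± 0.577 LEF1 peaks against 0.667 ± 0.516 (exact p = 0.0119, adjusted p = 1). With 3 against 3 libraries, the number of SOX2 peaks separated CHIR from noCHIR at Epha4 and Hoxb3 (5.64% of all genes). That of β-catenin separated WT from T/BraKO at Cyp26c1 (3.14%) and from CdxKO at Hoxa3 (2.38%). WT and CdxKO also separated at Hoxb2 for SOX2 (3.3%) and at Epha4, Hoxa3 and Hoxb2 for LEF1 (1.98%). In the best rank, of 9 genes tested for SOX2, WT CHIR was ahead of noCHIR at 5 (4.45%) and behind at 1 (7.37%). SOX2 in WT was ahead of CdxKO at 2 (2.35%) and of T/BraKO at 1 (2.12%). Of 10 genes, β-catenin in WT was ahead of each mutant at 2 and behind at 1. The shares were 3.55% and 2.72% (CdxKO) and 4.05% and 4.47% (T/BraKO). For LEF1, WT was ahead of CdxKO at 1 (1.65%) and behind each mutant at 1 (1.95% and 1.79%).

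Among the 20000 best peaks, 292 summits lay at the 5 genes. Within 100 bp of them SOX letters were about as frequent at SOX2 summits as elsewhere, whereas TCF/LEF letters were less frequent at β-catenin summits and more frequent at LEF1 summits, with no test. The SOX letters were found at 25.5% of the 153 SOX2 summits against 23.8% of all SOX2 summits. TCF/LEF letters were found at 18.2% of 99 β-catenin summits against 29.6%, and at 32.5% of 40 LEF1 summits against 18.9%. CDX letters were found at 11.3% of all 292 summits against 13.0%, and T-box letters at 2 of 292 against 1.12%. Summits of different libraries at a site share their sequence, so these counts are not independent. By gene, SOX letters were at 23 of 57 summits of En2, 24 of 92 of Pax2 and 3 of 118 of Gbx2.

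The patterns of best rank over the 30 libraries were most like those of the following genes, by Spearman's rho, given as a description. For Gbx2 they were Gm15796 (0.873), Gm13408 (0.862) and Mapkap1 (0.862). En2 was closest to Mir346 (0.900), Hhipl1 (0.889) and 4930526L06Rik (0.883), and Pax2 to Gm38081 (0.752), C230085N15Rik (0.711) and T (0.704). For En1 they were Gm27596 (0.760) and 2 annotated genes named Gm27528 (0.758), and for Egr2 Gm10493 (0.798), Gm35041 (0.658) and Park7 (0.658). The 30 points share 3 factors, and a difference between factors alone raises rho. The windows of Egr2, Gbx2, En2 and Pax2 also overlap other genes, among them Ado, D130058E05Rik, Gm43610 and the antisense gene Gm20395, so a peak cannot be assigned to the member alone.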

How the data were processed

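ChIP–seq peak lists of 30 immunoprecipitated libraries were analysed, in 10 groups of 3 biological replicates taken from the sample labels. The authors aligned single-end reads to mm10 with BWA in the nf-core chipseq pipeline and called narrow peaks with MACS2 in each library separately, without pooling. Which input served as control for which list, and the version of the peak caller, are not given in the sources used here, and the 12 inputs were left out. The deposited columns hold the fold enrichment at the summit (a ratio), the −log10 p-value and −log10 q-value, a score derived from the latter that was not used, and the summit offset in bp. The lists give no reads per peak, so the count model that the study applied could not be fitted, and read depth per library is unknown. The number of libraries limits the precision.

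Peaks of each list were ranked by −log10 q, and the 20000 best were kept. Gene positions came from GENCODE M21, and a peak was assigned to a gene if it overlapped the gene body extended by 10 kb by at least 1 bp. Overlapping peaks of the 20000 best were merged into regions. The number of peaks and the log10 rank of the best peak (ranks beyond 20000 set to 20001) were compared for every gene with a two-sided exact permutation test of the difference in group means, with Benjamini-Hochberg adjustment over all genes tested. The script was tested on simulated data. Motif letters on either strand were sought up to 100 bp from each summit. Analyses used Python 3.11.15, numpy 2.4.6, pandas 2.3.3, scipy 1.17.1 and matplotlib 3.10.9.

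The members, the lists of related genes and the tests were chosen with earlier results of these data known. The 5 genes were named in every comparison. Genes of the lists of 9 boundary and 10 rhombomere genes were named only where groups did not overlap in the number of peaks. Regions were given in full where called in most libraries at a gene, or in 3 of 3 libraries of a group and 0 of 3 of another. Genes of like pattern were the 3 with the highest Spearman correlation over the 30 libraries, for members with a peak among the 20000 best in at least 6 libraries. Sites, and the comparisons of values at them, were chosen after the values had been seen. Alternatives were the 5000 best peaks, full lists, a −log10 q of at least 5, ranking by fold enrichment, the gene body alone or extended by 50 kb, summits in place of peaks, a rank limit of 100001, a motif window of 50 bp, replicate blocks and leaving out each library.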

Additional observations from a re-analysis of the deposited data

How the results depend on the processing

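Values in this section are differences in the number of peaks at the 5 genes together, the first group minus the second, unless a gene is named. For SOX2, CHIR against noCHIR was −6.33 with the 20000 best peaks, 0.333 with the 5000 best, 21.7 with full lists, 1 with a −log10 q of at least 5 and −3 in the gene body alone. WT against CdxKO was −3.67 and became 38 with full lists and 11 with the q limit. WT against T/BraKO was −6.33 and became −0.667 with the 5000 best, 40 with full lists, 13 with the q limit and −2.33 in the gene body alone. CdxKO against the other 6 libraries was 0.5, and −18 and −4.5 with full lists and the q limit. For β-catenin, WT against CdxKO was −0.667, and 17.7, 11 and 1.67 with full lists, the q limit and windows of 50 kb. WT against T/BraKO was −2.33, and 16.7, 6.33 and 0.333 with full lists, the q limit and the gene body alone. CdxKO against the others was −0.5, and −9.33, −7.83 and −2.67 with full lists, the q limit and 50 kb. For LEF1, full lists gave −15.3, −16.3 and 7.17 and the q limit −3.67 and −5.33, in place of −0.333 (WT against CdxKO), 1 (WT against T/BraKO) and 0.833 (CdxKO against the others). The cause of these shifts was not tested.

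Leaving out 1 library at a time, the SOX2 differences ranged from −7.5 to −5.33 (CHIR against noCHIR), −5.33 to −0.333 (WT against CdxKO, the latter without CdxKO replicate 1), −7.83 to −4.83 (WT against T/BraKO) and −2.83 to 2.17 (CdxKO against the others). Those of β-catenin ranged from −2.17 to 0.333, −3.83 to −1.33 and −1.17 to 0.0667, and those of LEF1 from −1.83 to 0.667, −0.167 to 2.17 and −0.167 to 2.33, for WT against CdxKO, WT against T/BraKO and CdxKO against the others. At single genes, the SOX2 count of En2 was 6.67 higher in WT than in CdxKO with full lists and 0.667 higher with the q limit, and 7.67 and 2 higher than in T/BraKO. The β-catenin count of Gbx2 was 2.33 higher in WT than in T/BraKO with full lists. The SOX2 count of En2 kept its sign for CHIR against noCHIR under every alternative run, but was −0.333 (exact p = 1) in place of −3.33 with the 5000 best and with full lists. CDX and TCF/LEF letters were at 2.74% and 9.59% of the 292 summits within 50 bp, against 6.38% and 12.6% of all summits.

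The replicate numbers paired the libraries weakly at most. Deviations of same-numbered libraries from their group means correlated between −0.0598 and 0.0908 over 26961 genes. For replicate 3 these correlations were all positive, from 0.0306 to 0.0908. With the replicate block the SOX2 difference of CHIR against noCHIR stayed −6.33 and the differences at single genes had p = 0.25, the smallest value the exact within-number permutation allows.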
